A study of Mus musculus with 8 samples.

Results

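The Fanconi and homologous recombination repair genes described here are 40 genes of the 39179 in the deposited count table, taken by their symbols. They code for the proteins that detect broken or crosslinked DNA and repair it from an intact copy. Whether they are expressed at another level when sonic hedgehog (SHH), a secreted signalling protein, is neutralized was read in mouse pancreatic cancer cells, in 4 libraries with antibody and 4 without. All 40 genes had enough counts to be tested.

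Cells of both arms carried p48Cre, ROSA_rtTAL+ and p53L+, which are a Cre driver of the pancreas, a tetracycline transactivator and an altered p53 allele, in a mixed FVB/B6 strain. These epithelial cancer cells were labelled with GFP and grown for 72 h in 0.5% dialyzed serum beside RFP-labelled stellate cells, which are the pancreas's own fibroblast-like cells. The antibody arm received 20 µg/mL of a neutralizing SHH antibody, and the other arm received none. The GFP cells were then sorted, and polyA RNA was sequenced as directional libraries. The labels call the 4 samples of an arm biological replicates, but name no control antibody, no doxycycline state and no count of cell lines. The p-values therefore measure the spread between these samples.

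Homologous recombination repairs a double-strand break from the sister copy. Kinases signal the break, nucleases trim its ends to single strands, and the proteins BRCA1 and BRCA2 prepare the strand to find and pair with the matching sequence. The Fanconi proteins act on crosslinks between the DNA strands: a core complex marks the FANCD2 and FANCI pair with ubiquitin, nucleases then unhook the crosslink, and recombination completes the repair. Inherited mutations of several of these genes, among them Brca1, Brca2, Palb2 and Atm, raise the risk of pancreatic cancer in people. Many of the genes are transcribed mostly in S phase, when the sister copy is made.

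Each library held 10009711 to 15733280 counts, and the antibody libraries were deeper. Their lowest total was 14953255 counts, above the highest total without antibody, 14602784 (exact two-sided permutation test, p = 0.0286, the smallest the design can give). Of the libraries without antibody, replicate 1 stood apart from the other 3, at a chi-square per degree of freedom of 9.14 to 11.3 where antibody pairs gave 1.73 to 3.73. Replicate 4 stood 4.57 and 3.91 from replicates 2 and 3, which differed by 1.78. The defining epithelial markers were present, with Krt18 at a mean of 1871 CPM (counts scaled to equal library totals) with antibody and 1961 CPM without, and Cdh1 at 828.0 and 859.4 CPM. Of 7 epithelial markers tested 4 were higher with antibody, and 1 was called, Epcam (20.6 ± 1.5 to 25.0 ± 1.64 CPM, adjusted p = 0.022 in edgeR). That call was lost without antibody replicate 1, 3 or 4 or without replicate 4 of the other arm. The 15 stellate and fibroblast markers summed to 151.0 to 179.9 CPM with antibody and to 145.1 to 183.8 CPM without, mostly Col5a1, and 2 of them were at 0 in every library. The stellate markers pointed both ways: of 8 tested, 6 had a log2 fold change above 0 (median 0.30) with 0 called higher (also 0 in DESeq2; 3 of the 8 at an unadjusted p under 0.05 in either direction), and Pdgfra fell, from 4.97 ± 0.888 to 2.78 ± 0.489 CPM (adjusted p = 0.00271 in edgeR). Col3a1 had the highest, 0.66 (2.61 ± 1.19 to 4.27 ± 1.73 CPM, adjusted p = 0.156). Without replicate 1 of the arm with no antibody 3 stellate markers were called higher, and without antibody replicate 3 it was 1. The part of these markers in the results below was not tested. Leukocyte markers summed to at most 6.11 CPM, with Cd3e at 0, and endothelial markers to at most 14.5 CPM.

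With the antibody 6 of the 40 genes rose and 0 fell, at an adjusted p under 0.05 in edgeR's quasi-likelihood test with Benjamini-Hochberg adjustment over 13626 genes. The 6 were Bard1, Clspn, Atm, Exo1, Brca1 and Fancm, and their rises were small, from 1.13-fold to 1.33-fold. The 6 genes are 15.0% of the 40, where 4.53% of all genes tested rose and 3.87% fell. At an unadjusted p under 0.05, 9 of the 40 passed, with 9 higher and 0 lower, and 2923 of all 13626 genes tested passed in either direction. These shares are close, so the number that passed at this level is not a result about the 40. DESeq2 called 3 of the 40 higher and 0 lower, where 4.21% of all genes it tested rose. In sign, 30 of the 40 log2 fold changes were above 0, against 6604 of all 13626 genes tested. Their median was 0.09, against -0.004 for all genes tested. In 7 genes (17.5%) all 4 antibody libraries lay above all 4 without antibody, where 7.71% of all genes tested did so. These are bulk samples, so more RNA per cell and more cells that express a gene cannot be told apart.

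The calls rested on these libraries to different degrees. Bard1 and Clspn rose in all 21 alternative fits, which included leaving out each library in turn. Atm, Exo1, Brca1 and Fancm lost the call when certain single libraries were left out, as given with each gene. Brca1 and Fancm also lost it when libraries were thinned to equal depth and when a trend with gene length was removed. DESeq2 called Bard1, Clspn and Atm, and on the RPKM scale Bard1 and Clspn were called. The number of genes called fell to between 2 and 5 when 1 library was left out, where 2.68% to 5.5% of all genes tested rose. It was 2 without antibody replicate 2, 3 or 4, where 2.68% to 3.11% of all genes tested rose. It was 3 without antibody replicate 1 (3.23% of all genes) and without replicate 2 of the arm with no antibody (3.88%). Without replicates 1 and 4 of that arm together it was also 3, where 8.06% of all genes tested rose. In that fit the share of the 40 was not above that of all genes.

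RefSeq promoters of the build GRCm38.p6, from 250 bases before to 50 after a start site, were at hand for 31 of the 40 genes, Exo1 not among them. An E2F-type word is a short sequence of the kind that binds the E2F factors of S phase genes. The 5 promoters below are all those on file for called genes, shown whether or not they hold such a word. Each runs 5′ to 3′ on the gene's own strand, from 220 bases before the start site to 30 bases from it onward, with the E2F-type words in capitals. The 4 words searched on both strands were TTCCCGC, its variants TTGGCGC and also TTCGCGC, and last TTGCCGC. The variant TTGGCGC can overlap a CCAAT box, since it shares letters with that box's reverse complement.
Bard1: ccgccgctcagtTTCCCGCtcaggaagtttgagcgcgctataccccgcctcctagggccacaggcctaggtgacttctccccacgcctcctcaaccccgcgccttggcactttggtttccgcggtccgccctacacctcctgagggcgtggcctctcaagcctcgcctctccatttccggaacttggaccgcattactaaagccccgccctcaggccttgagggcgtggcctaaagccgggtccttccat
Clspn: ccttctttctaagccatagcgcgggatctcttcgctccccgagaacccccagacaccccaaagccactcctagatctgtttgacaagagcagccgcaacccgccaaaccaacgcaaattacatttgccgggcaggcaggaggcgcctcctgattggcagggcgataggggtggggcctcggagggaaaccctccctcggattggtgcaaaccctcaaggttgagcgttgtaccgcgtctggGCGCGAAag
Atm: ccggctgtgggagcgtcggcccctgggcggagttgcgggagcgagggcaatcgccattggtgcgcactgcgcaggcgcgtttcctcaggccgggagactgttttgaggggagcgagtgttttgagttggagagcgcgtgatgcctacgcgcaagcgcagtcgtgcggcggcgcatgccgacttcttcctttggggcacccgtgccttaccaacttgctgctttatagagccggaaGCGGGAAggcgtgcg
Brca1: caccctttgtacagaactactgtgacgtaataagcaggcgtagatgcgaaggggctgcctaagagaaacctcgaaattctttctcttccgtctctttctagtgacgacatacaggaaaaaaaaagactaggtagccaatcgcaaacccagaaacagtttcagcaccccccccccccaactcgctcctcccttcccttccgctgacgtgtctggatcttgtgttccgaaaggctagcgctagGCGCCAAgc
Fancm: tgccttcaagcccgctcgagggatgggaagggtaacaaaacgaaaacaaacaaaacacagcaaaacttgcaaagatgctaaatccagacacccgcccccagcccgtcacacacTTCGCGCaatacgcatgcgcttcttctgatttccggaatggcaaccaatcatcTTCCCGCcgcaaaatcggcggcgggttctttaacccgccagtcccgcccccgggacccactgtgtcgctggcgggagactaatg

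The Bard1 window lies at chr1:71102943-71103192 on the minus strand, and its E2F-type word begins 208 bases before the start site. In Clspn (chr4:126556760-126557009, plus strand), Atm (chr9:53536642-53536891, minus strand) and Brca1 (chr11:101551926-101552175, minus strand) the word lies just after the start site, at bases 22, 16 and 22, and matches on the opposite strand. Fancm (chr12:65075383-65075632, plus strand) holds a pair of words, 107 and 54 bases before its start. An E2F-type word was thus in 5 of the 5 called promoters on file. It was also in 13 of the 29 promoters of genes not called (44.8%, from 12 of 26 genes), Brca2 and Topbp1 among them. Over all 32851 promoters 9.57% held it, over those of genes tested 16.7%, over those of all genes that rose 19.0% and over those of the S phase list described later 65.0%. The CCAAT box, searched as CCAAT, was in 64.7% of the promoters of these repair genes and in 37.4% of all promoters. The CHR-type words of mitotic genes, TTTGAA and TTCGAA, were in 11.8% and 19.2%. Some start sites lie away from the start of the counted gene, by 65533 bases in Fancc, 2092 in Slx4 and 174 in Bard1. A word match describes the sequence and does not show binding.

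**Figure D1:**
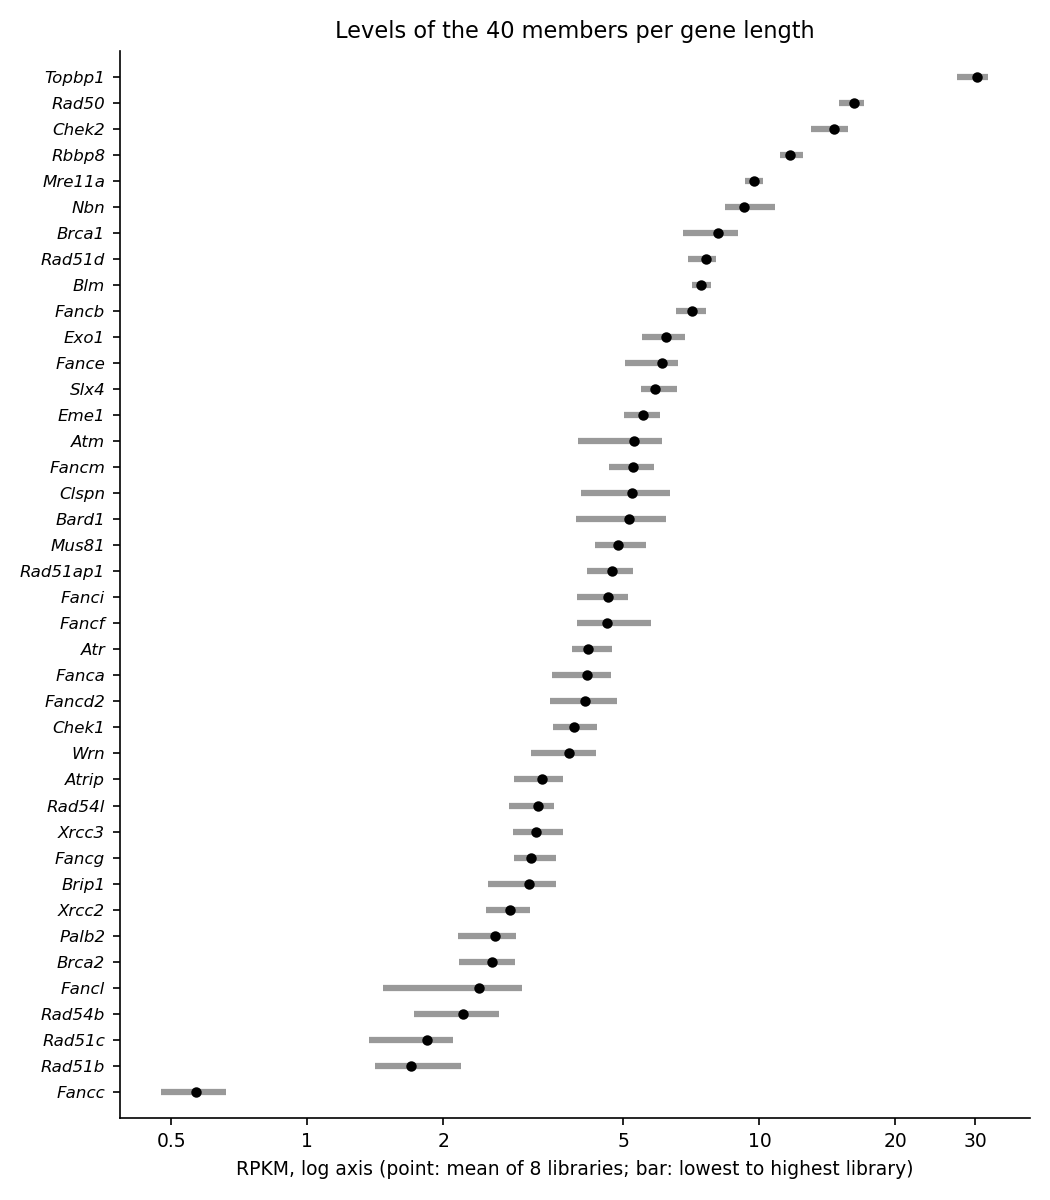
Level of each of the 40 genes in RPKM (reads scaled to gene length and library total, log axis), as the mean of all 8 libraries (point) with the lowest to highest library (bar). Topbp1 leads at 30.3 RPKM and Fancc is last at 0.566 RPKM.

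Per gene length, the most abundant transcript was that of Topbp1, a scaffold that activates the kinase ATR, at a mean of 30.3 RPKM over the 8 libraries. Rad50, of the complex that first holds a broken end, followed at 16.2 RPKM (15.0 to 17.0), and Chek2, a checkpoint kinase, at 14.6 RPKM (13.0 to 15.7). The ranges of this latter pair overlapped, while that of Topbp1 (27.3 to 32.1 RPKM) lay above both. Rbbp8 (11.7 RPKM), Mre11a (9.73 RPKM), Nbn (9.23 RPKM) and Brca1 (8.10 RPKM) came next. The other genes that rose sat close together in the middle of the order, with Exo1 at 6.22 RPKM and Atm, Fancm, Clspn and Bard1 between 5.14 and 5.27 RPKM, with library ranges that overlap. Brca2 was low, at 2.56 RPKM, and so were Rad51c (1.84 RPKM) and Rad51b (1.70 RPKM), which act in strand exchange. Fancc, of the Fanconi core, was lowest at 0.566 RPKM, with every library (0.475 to 0.661) below every library of the other 39 genes.

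**Figure D2:**
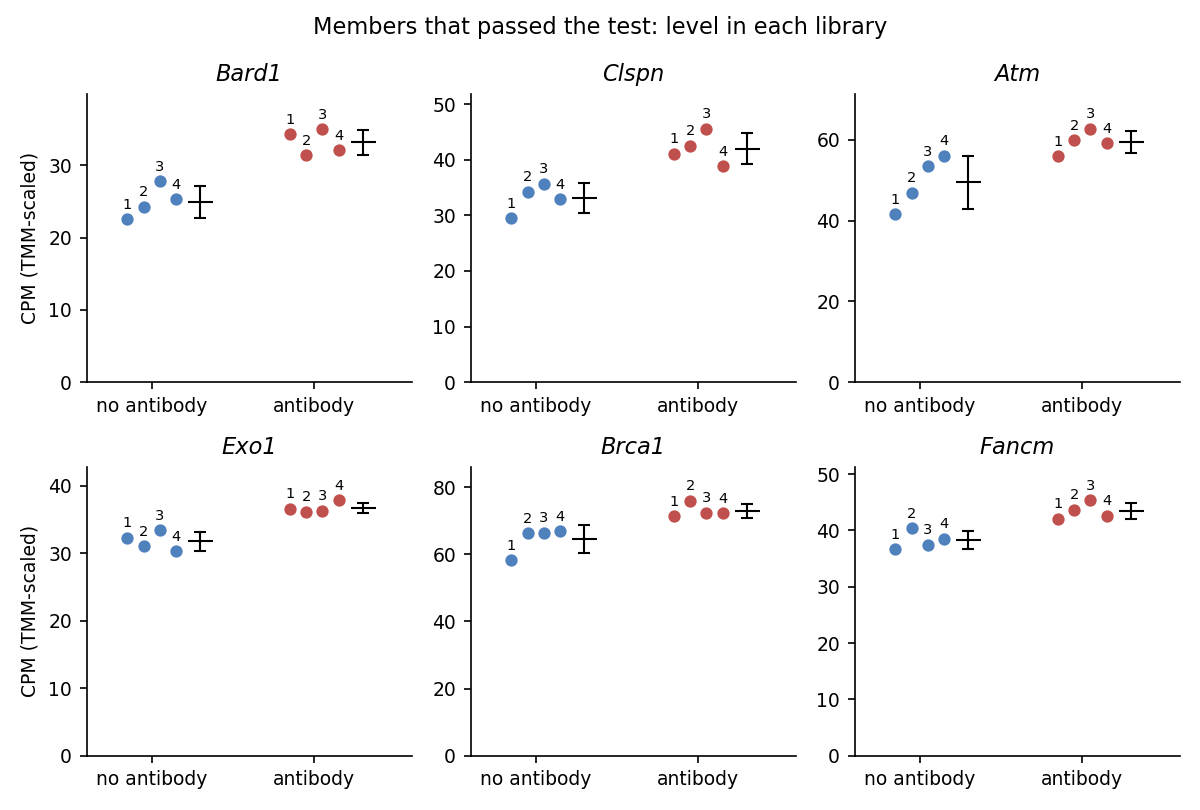
Level in CPM of the 6 genes that rose, in each library (numbered points) with the mean and SD of 4 libraries beside them; every axis starts at 0. The arms do not overlap for 5 genes, while for Atm replicate 4 without antibody (56.1 CPM) lies just above antibody replicate 1 (56.0 CPM).

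Among the 7 genes of checkpoint signalling 2 rose, where 4.53% of all genes tested rose. The role groups here and below are small, and none was tested as a set. Clspn (ENSMUSG00000042489, chr4:126556935-126593903, plus strand) codes for claspin, the adaptor through which ATR activates the kinase CHK1 at stalled forks. It stood at 41.1, 42.5, 45.5 and 38.9 CPM in antibody libraries 1 to 4 and at 29.5, 34.2, 35.7 and 32.9 CPM in those without. Every antibody library lay above every other library, and the lowest value was in the replicate 1 that stands apart. The mean was 42.0 ± 2.80 CPM against 33.1 ± 2.67 (SD, n = 4 each), 1.27-fold (95% interval 1.16 to 1.4, log2 fold change 0.35 ± 0.07 SE, adjusted p = 0.00182).

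Atm (ENSMUSG00000034218, chr9:53439149-53536740, minus strand) codes for the kinase that signals double-strand breaks. Its values were 56.0, 59.9, 62.7 and 59.2 CPM with antibody and 41.5, 46.9, 53.4 and 56.1 CPM without. The libraries without antibody were widely spread (49.5 ± 6.55 CPM, SD, n = 4), those with antibody less so (59.4 ± 2.78), and the arms met at their edges. The fold was 1.2 (1.08 to 1.33, log2 0.26 ± 0.07 SE, adjusted p = 0.0267). It lost the call without antibody replicate 2, 3 or 4 (adjusted p = 0.0718, 0.102 and 0.0628) and without replicate 2 of the other arm (0.0692).

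Of the 5 other signalling genes, Topbp1 came nearest to a call. It stood at 160.0, 167.6, 163.9 and 162.5 CPM with antibody and at 144.9, 150.1, 157.8 and 159.5 CPM without. Its arms did not overlap, but the shift was slight (log2 0.10 ± 0.05 SE) and the adjusted p was 0.242. Chek1, the kinase that claspin serves, had a log2 fold change of 0.15 and an adjusted p of 0.290, and Chek2, which acts downstream of ATM, one of 0.09 (0.421). The kinase Atr and its partner Atrip were nearly level, Atr at 33.8 ± 2.93 CPM with antibody and 33.7 ± 2.47 CPM without (fold 0.998, 0.900 to 1.11). Its interval is narrow and lies on both sides of no change. In sum the 7 genes gave 358.0 to 378.3 CPM with antibody and 317.5 to 351.0 CPM without.

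Of the 5 genes of end resection 1 rose, Exo1 (ENSMUSG00000039748, chr1:175880778-175911396, plus strand), where 4.53% of all genes tested rose. It codes for the exonuclease that trims a broken end over a long distance. Antibody libraries 1 to 4 held 36.6, 36.2, 36.3 and 37.9 CPM, and those without antibody held 32.3, 31.1, 33.4 and 30.3 CPM. The arms did not overlap and the spread within each was small, 36.8 ± 0.757 CPM against 31.8 ± 1.38 (SD, n = 4 each). The fold was 1.16 (1.06 to 1.26, log2 0.21 ± 0.06 SE, adjusted p = 0.0297). The call was lost in edgeR without any 1 of the 4 antibody libraries (adjusted p from 0.0686 to 0.0979), and without replicate 2 (0.0621) or 4 (0.0715) of the other arm. DESeq2 gave 0.0527.

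The 3 subunits of the complex that first binds and cuts a broken end were not called. Mre11a, the nuclease, had a fold of 1.01 (0.934 to 1.09), Rad50, the clamp, of 1.03 (0.957 to 1.10), and Nbn, which brings in ATM, a log2 value of 0.13 (adjusted p = 0.339). For Mre11a and Rad50 the intervals leave room for only a small change, below the 1.16 of Exo1. Rbbp8, which codes for the cofactor CtIP of that complex, was at 0.05 on that scale (adjusted p = 0.649).

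In the BRCA1 and BRCA2 complexes 2 of 5 genes rose, where 4.53% of all genes tested rose. The 2 that rose code for the BRCA1-BARD1 ubiquitin ligase. Bard1 (ENSMUSG00000026196, chr1:71027498-71103146, minus strand), whose product is the partner of BRCA1, had the largest fold of all 40 genes. It stood at 34.3, 31.4, 35.01 and 32.1 CPM with antibody and at 22.5, 24.2, 27.8 and 25.3 CPM without. The 2 arms lay well apart, 33.2 ± 1.74 CPM against 25.0 ± 2.22 (SD, n = 4 each). The fold was 1.33 (1.2 to 1.48, log2 0.41 ± 0.07 SE, adjusted p = 0.000612). Over the 21 other fits its log2 fold change stayed between 0.35 and 0.47.

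Brca1 itself (ENSMUSG00000017146, chr11:101488764-101551955, minus strand) moved less. Its levels were 71.3, 75.9, 72.3 and 72.2 CPM with antibody and 58.2, 66.3, 66.4 and 66.8 CPM without. Replicate 1 without antibody was lower than its 3 companions, which lay within 1 CPM of each other, and all 4 antibody libraries were above them. The mean was 72.9 ± 2.03 CPM against 64.4 ± 4.16 (SD, n = 4 each), 1.13-fold (1.05 to 1.22, log2 0.18 ± 0.05 SE, adjusted p = 0.0421). Without that replicate 1 the log2 fold change was 0.13 and the adjusted p was 0.0866. It was also lost without any 1 of the antibody libraries (0.0754 to 0.161) and without replicate 2 (0.0523) or 3 (0.0545) of the other arm. DESeq2 gave 0.0508, so that it called 1 gene of the group, and the RPKM fits gave 0.125 and 0.123.

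Brip1, the helicase that binds BRCA1, was next in the order of p but was not called. It stood at 22.5, 26.4, 24.4 and 26.0 CPM with antibody and at 19.0, 23.1, 22.9 and 20.8 CPM without, so that the arms overlapped. Its log2 fold change was 0.22 ± 0.08 SE with an adjusted p of 0.0996. The BRCA2 side of the group, which acts after resection, was near level. Brca2 stood at 28.1 ± 0.619 CPM against 26.9 ± 3.04 (SD, n = 4 each; fold 1.04, 0.934 to 1.16), and Palb2, which links BRCA1 to BRCA2, had -0.04 on the log2 scale (adjusted p = 0.872). Whether Bard1 and Brca2 differ in their response was not tested.

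**Figure D3:**
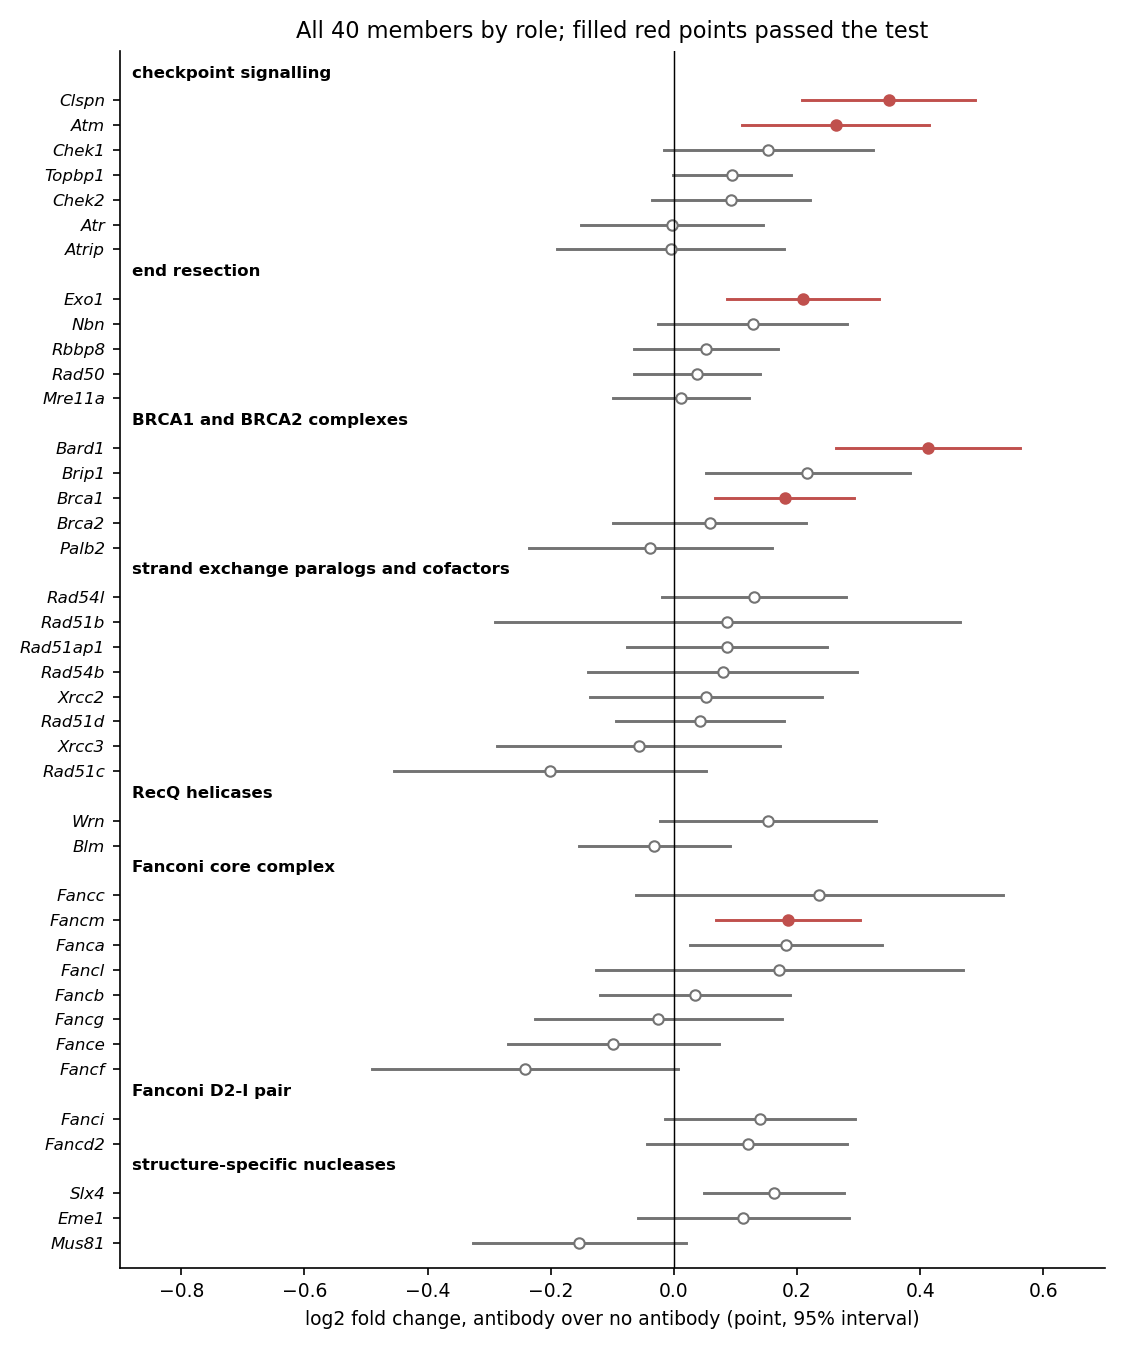
Log2 fold change, antibody over no antibody, with its 95% interval for all 40 genes grouped by role; filled red points have an adjusted p under 0.05. Bard1 (0.41) and Clspn (0.35) lie farthest to the right, 30 points lie above 0, and the interval of Fancf (-0.24), the lowest point, crosses 0.

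None of the 8 paralogs and cofactors that act in strand exchange changed at an adjusted p under 0.05 in edgeR (0 also at an unadjusted p under 0.05, and 0 in DESeq2). Of all genes tested 4.53% rose and 3.87% fell, and 8 genes would hold few calls at those shares. This 0 is therefore not a result about the group. The same holds for the RecQ helicases, the FANCD2 and FANCI pair and the structure-specific nucleases below. The log2 fold changes ran from -0.20 for Rad51c, a subunit of both paralog complexes (7.499 ± 1.24 CPM against 8.63 ± 0.510, adjusted p = 0.368), to 0.13 for Rad54l, the motor that drives strand exchange (26.1 ± 0.923 against 23.9 ± 1.91, 0.317). The paralogs Rad51b (0.09), Rad51d (0.04), Xrcc2 (0.05) and Xrcc3 (-0.06), the cofactor Rad51ap1 (0.09) and the motor Rad54b (0.08) lay between. Rad51b was the faintest of them, at 3.12 ± 0.593 and 2.91 ± 0.410 CPM, and its interval is wide. Summed, the group gave 123.6 to 130.5 CPM with antibody and 119.7 to 125.8 CPM without, so that its arms overlapped.

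Of the RecQ helicases, which unwind recombination intermediates, 0 of 2 changed (edgeR; 0 at an unadjusted p under 0.05 and 0 in DESeq2). The log2 fold change of Wrn was 0.15 (adjusted p = 0.316) and that of Blm was -0.03 (0.819).

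Among the 8 genes of the Fanconi core complex 1 rose, where 4.53% of all genes tested rose. Fancm (ENSMUSG00000055884, chr12:65075606-65132058, plus strand) codes for the DNA translocase that brings the core to a stalled fork. It stood at 42.1, 43.7, 45.4 and 42.6 CPM with antibody and at 36.6, 40.4, 37.5 and 38.5 CPM without. The arms did not overlap, but replicate 2 without antibody came within 2 CPM of the lowest antibody library. The mean was 43.5 ± 1.42 CPM against 38.3 ± 1.61 (SD, n = 4 each), 1.14-fold (1.05 to 1.23, log2 0.19 ± 0.06 SE, adjusted p = 0.0454). This was the least stable of the 6 calls: it was kept in 1 of 8 fits that leave out a library, that without replicate 2 of the arm with no antibody, and in 4 of the 13 other fits. The adjusted p in the other 7 ran from 0.0639 to 0.168, and DESeq2 gave 0.0808.

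Fanca, a scaffold of the core, stood at 35.6, 39.8, 38.9 and 35.7 CPM with antibody and at 37.6, 29.95, 35.03 and 29.6 CPM without. Replicate 1 without antibody was here the highest of its arm, and the arms overlapped. The log2 fold change was 0.18 ± 0.07 SE and the adjusted p was 0.149, but without that replicate Fanca was called (0.0160). Its gene overlaps Zfp276 on the other strand, and no source used here states if reads were counted by strand.

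The other 6 core genes were not called and pointed both ways. Fancl, the ubiquitin ligase of the core, was at 0.17 on the log2 scale (adjusted p = 0.539), Fancb at 0.03 (0.846) and Fancg at -0.02 (0.920). Fancf, an adaptor, was the lowest of all 40 genes at -0.24 (7.10 ± 0.440 against 8.44 ± 1.23 CPM, adjusted p = 0.249), while Fancc, its neighbour in the core, was at 0.24 (4.86 ± 0.381 against 4.08 ± 0.526 CPM, 0.368). Fance, which contacts FANCD2, was at -0.10 (0.541). Subunits of this 1 complex thus had log2 fold changes spread from -0.24 to 0.24, with the widest intervals at the faintest genes.

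The substrates of the core, Fancd2 and Fanci, were not called (0 of 2 in edgeR, 0 at an unadjusted p under 0.05, 0 in DESeq2). Fancd2 stood at 34.0 ± 3.22 against 31.3 ± 3.18 CPM (log2 0.12, adjusted p = 0.412) and Fanci at 28.0 ± 1.61 against 25.5 ± 2.19 CPM (0.14, 0.287). Both intervals cross 0.

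Of the 3 structure-specific nucleases, which cut branched DNA and unhook crosslinks, 0 passed in edgeR (1 at an unadjusted p under 0.05, 0 in DESeq2). That 1 was Slx4, the scaffold that gathers these nucleases. It stood at 49.9, 45.1, 48.8 and 46.9 CPM with antibody and at 42.5, 43.1, 42.9 and 42.0 CPM without. Its arms did not overlap (47.7 ± 2.12 against 42.6 ± 0.492 CPM, log2 0.16 ± 0.06 SE), yet the adjusted p was 0.07 and Slx4 was called in none of the 21 other fits. The nuclease subunit Mus81 was at -0.15 on the log2 scale (adjusted p = 0.301) and its partner Eme1 at 0.11 (0.474), with a difference between them that was not tested.

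Over the 34 genes not called, 24 log2 fold changes were above 0 and 10 below. Their 95% intervals ran from a fold of 0.712 to 1.45, and in 15 of the 34 the interval lay within 1.2-fold either way. In the other 19 it reached past 1.2-fold in at least 1 direction, so for these a change of the size of Atm's, up or down, lies within the interval. For Fancf, Mus81, Rad51c, Fance and Xrcc3 it reached that far only downward. Gene overlap touches 10 of the 40: Xrcc3, Rad54l, Rad54b, Blm, Fanca, Fancc, Fancf, Fancl, Fanci and Eme1 share bases with another gene that has at least 10 counts on average. Without the strand setting their counts are uncertain. None of the 6 called genes is among them.

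Among 54 tested genes from a wider list of recombination and crosslink repair, 6 rose and 0 fell (11.1%, median log2 fold change 0.07). Of all genes tested 4.53% rose and 3.87% fell. Rev3l, the catalytic subunit of the polymerase that copies past crosslinks, went from 72.0 ± 6.94 to 88.8 ± 4.57 CPM (SD, n = 4 each; log2 0.30 ± 0.06 SE, adjusted p = 0.00298). Fignl1, an ATPase of homologous recombination, went from 41.5 ± 1.45 to 48.1 ± 0.958 CPM (0.21 ± 0.05 SE, 0.0151). The helicase Helq (0.26 ± 0.07 SE, 0.0211) and Dna2, a resection nuclease like Exo1 (0.24 ± 0.07 SE, 0.0248), rose as well. The remaining pair, named after their values were seen, was the chromatin remodeller Hells (0.19 ± 0.05 SE, 0.0324) and Rpa2 of the complex that coats single strands (0.21 ± 0.06 SE, 0.0393). The count of higher genes was 2 without antibody replicate 2 or 3 and on the RPKM scale, and 3 without antibody replicate 4. In those fits 2.68% to 3.11% of all genes tested rose. Without replicates 1 and 4 of the other arm 9 were higher and 2 lower, where 8.06% of all genes tested rose. Without replicate 1 of that arm alone 5 were higher and 1 lower, where 5.5% of all genes tested rose.

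The other repair routes are set beside all genes tested, of which 4.53% rose, 3.87% fell and 2923 of 13626 had an unadjusted p under 0.05. In edgeR 0 of 22 ATR and ATM checkpoint genes changed (6 at an unadjusted p under 0.05, 0 in DESeq2), 0 of 15 end joining genes (4 and 0) and 0 of 17 base excision repair genes (2 and 0). Lists of this size would hold few calls at those shares, so the zeros are not a result about the routes. Of 7 mismatch repair genes, Msh6, which recognizes mismatches, rose from 135.8 ± 9.15 to 158.2 ± 2.20 CPM (log2 0.22 ± 0.05 SE, adjusted p = 0.00677). Of 21 nucleotide excision repair genes, Ercc1 fell from 99.4 ± 7.88 to 79.7 ± 2.15 CPM (-0.32 ± 0.06 SE, 0.000717). Its product is a nuclease with XPF that unhooks crosslinks on the SLX4 scaffold, and its direction was opposite to that of the 6 called genes.

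**Figure D4:**
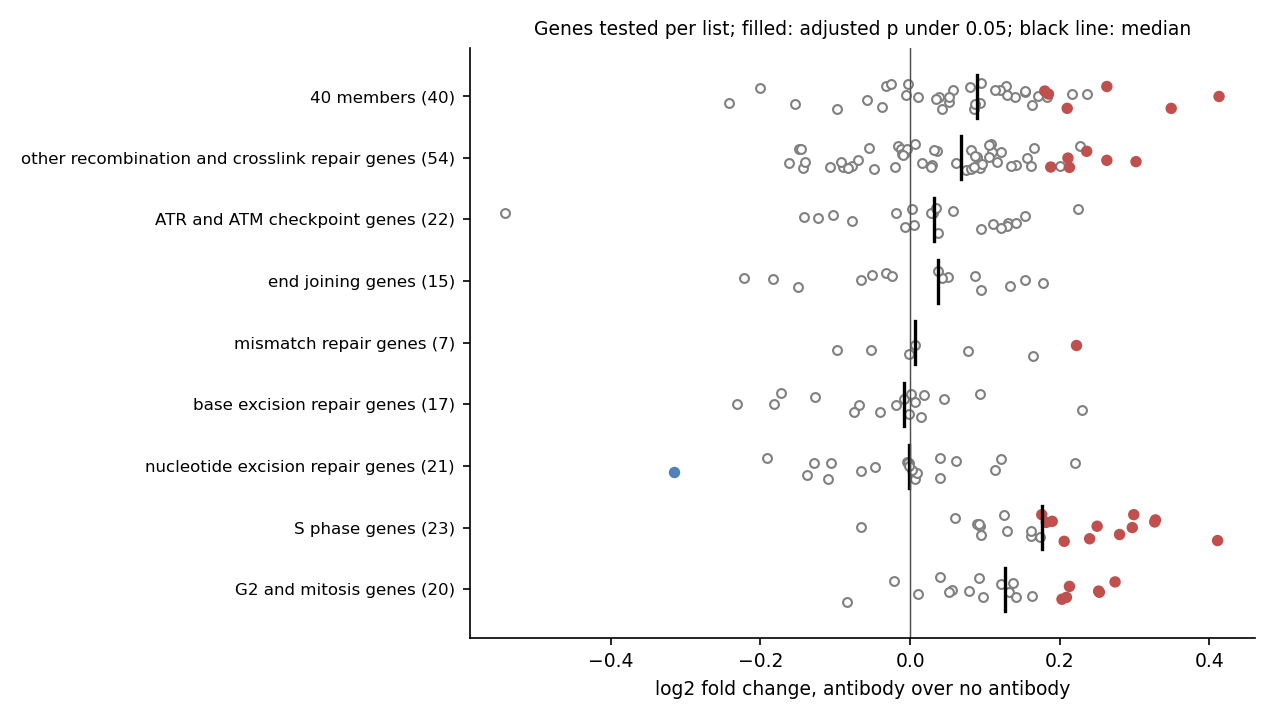
Log2 fold change, antibody over no antibody, of every tested gene of the 40 repair genes and of the other lists, with the number tested in brackets; filled points have an adjusted p under 0.05 and the black line is the list's median. The S phase list has the highest median, 0.18, and the 40 genes have a median of 0.09.

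Some genes of the cell cycle also rose with the antibody. Of 23 S phase genes 12 rose and 0 fell (52.2%, median log2 fold change 0.18), and of 20 genes of G2 and mitosis 6 rose and 0 fell (30%, median 0.13). Of all genes tested 4.53% rose and 3.87% fell. The S phase count was 8 without antibody replicate 2, 3 or 4, without replicate 4 of the other arm and on the RPKM scale. The mitosis count was 2 without antibody replicate 2, 3 without antibody replicate 4 and 2 on the RPKM scale. Calls over all genes tested also fell without antibody replicate 2, 3 or 4 and on the RPKM scale, to 2.68% to 3.11% higher. Without replicate 4 of the other arm 4.54% rose. Without replicates 1 and 4 of the other arm, 8 S phase genes were higher and 1 lower, and 6 mitosis genes were higher and 2 lower. In that fit 8.06% of all genes tested rose. The summed level of the S phase list was 2052 to 2078 CPM with antibody and 1663 to 1911 CPM without. That of the mitosis list was 2382 to 2510 CPM and 2015 to 2340 CPM. Summed over the 40 repair genes the levels were 1247, 1296, 1287 and 1282 CPM with antibody and 1160, 1174, 1199 and 1215 CPM without. In all 3 sums every antibody library lay above every other library. The part of the cell cycle genes in the rise of the repair genes was not tested, and neither was that of the deeper antibody libraries. With all libraries thinned to the smallest total, 5 of the 40 were called, where 3.98% of all genes tested rose. Of the 5, Bard1, Clspn, Atm and Exo1 were also called at full depth and Fanca was not.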

How the data were processed

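Polyadenylated RNA of sorted cancer cells was sequenced from 8 samples. Per the submitters' processing notes, CASAVA 1.8.2 and TopHat2 2.0.9 were used with the build GRCm38. How reads were counted, with which annotation and strand setting, is not given in the sources used here. Raw counts per gene and RPKM values were deposited by the authors. Each RPKM equals the count over gene length and column total.

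Samples were grouped by the treatment label, with minus in a title marking the antibody arm. Of 39179 genes, 21392 had a count and 13626 passed filterByExpr. The test was edgeR 4.0.16 under R 4.3.3 (quasi-likelihood F test after TMM scaling, arm as the only term, Benjamini-Hochberg at 0.05). Fold changes are antibody over no antibody, with the SE from the F statistic and 95% intervals. CPM values are TMM-scaled. A count of 3 corresponds to 0.191 to 0.30 CPM, which covers counting error only. The procedure was tested on simulated data.

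The members and lists were chosen with earlier results of these data known. Values per library are given for called members and for the 4 others with the smallest p, and up to 4 genes of smallest p of each other list could be named. Of the wider recombination list, 6 of 62 symbols were not matched and 2 genes were too low to test. An allele that both arms share and values of some listed genes are not reported here.

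Alternatives were scaling by RLE or the upper quartile, no filter, a filter at 1 CPM in 4 libraries, the replicate number as a block, DESeq2 1.42.0, limma 3.58.1 (voom, or RPKM as log2 after adding 1 or 0.1) and fits without each library in turn. Chosen after seeing the data were leaving out replicates 1 and 4 without antibody, thinning to the smallest total, voom with sample weights and removing a trend with gene length.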

Additional observations from a re-analysis of the deposited data

Results flagged for a closer look

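In 82 groups of 4 libraries (the 40 genes and their sum, in each arm), 6 held a library far from the other 3, with a gap to its nearest neighbour above Dixon's 95% critical value as a share of the group's range. Chance flags about 1 group in 20. Brca1 stood at 58.2 CPM in replicate 1 without antibody, against 66.3 to 66.8 CPM in the other 3 (gap over range 0.94). Without that library its adjusted p was 0.0866. Fancl stood at 4.96 CPM in replicate 3 without antibody, against 8.15 to 8.73 CPM (0.846). In replicate 4 without antibody Rad51d was low, at 25.8 CPM against 28.4 to 28.8 CPM (0.894), and Fancc was high, at 4.86 CPM against 3.75 to 3.90 CPM (0.866). With antibody, Brca2 was at 29.0 CPM in replicate 3 against 27.7 to 27.9 CPM (0.85), and Blm at 38.5 CPM in replicate 2 against 35.2 to 35.8 CPM (0.84).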

How the results depend on the processing

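Of 40 genes, 25 kept their call and direction in all 21 other fits, and none was called lower in any. Against 6 genes called higher, DESeq2 gave 3, both RPKM fits 2, and leaving out replicates 1 and 4 without antibody 3. Of all genes tested, 4.21% rose in DESeq2, 2.83% and 2.79% in the RPKM fits and 8.06% without those replicates. Leaving out 1 library gave 2 to 5, where 2.68% to 5.5% of all genes tested rose. Over all genes, 1144 calls became 675 with log2(RPKM + 1), 670 with log2(RPKM + 0.1), 2263 without those replicates 1 and 4, and 679 to 1485 without 1 library (679 without antibody replicate 2 and 695 without antibody replicate 3). With the trend with gene length removed, 4 of the 40 were called, and Brca1 (adjusted p = 0.0913) and Fancm (0.0976) were not. In that fit 4.2% of all genes tested rose. The replicate block gave 4 of 40, where 4.01% of all genes tested rose, and 1005 genes called in either direction. Same-numbered libraries did not deviate together (correlations -0.0285 to 0.00662). This does not settle whether the numbers pair them, since paired libraries need not share a deviation. Log2 fold changes that turned sign were all of genes not called. Without replicates 1 and 4, Blm was 0.012, Palb2 0.019 and Atr 0.081. Thinned, Fancb was -0.050, Atrip 0.051 and Atr 0.017. With no filter Atrip was 0.00018 and Atr 0.0019, with RPKM Atr was 0.0086 and 0.010, with sample weights Atr was 0.031, and with length removed Mre11a was -0.0068. Without 1 library the values ran from -0.0093 to 0.14 for Brca2, -0.0030 to 0.21 for Rad54b, -0.035 to 0.20 for Rad51b, -0.11 to 0.0042 for Palb2, -0.096 to 0.0095 for Fancg, -0.0064 to 0.035 for Mre11a, -0.060 to 0.058 for Atrip and -0.065 to 0.045 for Atr. The causes were not tested.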

Other observations

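The genes that rose have long transcripts. The 6 called genes had a median gene length, as implied by the deposited RPKM values, of 7481 bases (5506 to 10338), the other 34 of 5016 bases (1691 to 10724), and all genes tested of 3418 bases. Over all genes, those that rose had a median of 4533 bases and those that fell of 2967 bases.

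The libraries without antibody were more variable over the repair genes and over all genes alike. For the repair genes the median coefficient of variation over 4 libraries was 5.78% with antibody and 7.82% without, and 29 of 40 (72.5%) were more variable without. All genes tested gave 5.28% and 8.35%, with 73.5% more variable without. Replicate 1 without antibody held the lowest value of 11 of the 40 genes, replicate 4 of 8, replicate 3 of 7 and replicate 2 of 4, while the antibody libraries held it for 1 to 3 genes each. The 40 genes lie on 15 chromosomes, with 7 on chromosome 11 and 6 on chromosome 9.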
